A study of Mus musculus with 2 samples.

Results

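The windows described here are the 1000 bases before the start of RefSeq genes with a noncoding accession, in cultured splenic B cells of Nedd4+/+ and Nedd4-/- genotype. They were chosen by name alone: every row whose identifier starts with NR_ was taken, except genes named Mir, Snor, Scarna, Snhg, Rnu, n-R5s or Rn4.5s, which are microRNAs, small RNAs of the nucleolus, Cajal body or spliceosome, their hosts, and small ribosomal or repeat-derived RNAs. This gave 2116 of 23288 windows, 1 per gene, and 20419 of the others lie upstream of protein-coding genes. Some members, such as Dand5, Slx1b, Trpt1, Gnas and Rtel1, bear the symbol of a coding gene. They entered through a noncoding isoform and are counted as noncoding genes here. The study holds 1 library of each genotype. Both came from fetal liver chimeric mice, whose blood cells descend from transplanted fetal liver, on a mixed B6 and 129 background crossed back to B6. All cells were cultured for 72 hours with lipopolysaccharide and interleukin 4, a stimulus that drives class switching to IgG1. RNA depleted of ribosomal RNA was sequenced, and since nothing was replicated, genotype differences are described without a test.

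The upstream level of a window is given in RPKM, the reads per kilobase scaled to the size of the library, on the same scale as the level of the gene itself. A read pair in a window was worth 0.0241 RPKM in Nedd4+/+ cells and 0.0328 RPKM in Nedd4-/- cells, from 8.40 and 6.17 gigabases of reads. A window at 0 could therefore hold up to 0.0722 and 0.0983 RPKM, the level of 3 pairs. The B cell markers reported here (Cd79a, Cd79b, Ms4a1, Cd22 and Pax5) stood between 13.9 and 183 RPKM in Nedd4+/+ cells and between 15.6 and 155 RPKM in Nedd4-/- cells, and 0 of 14 markers of T, myeloid and erythroid cells reached a mean of 1 RPKM. Nedd4, which encodes a ubiquitin ligase, was at 7.59 RPKM in Nedd4+/+ and 1.95 RPKM in Nedd4-/- cells.

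Noncoding genes are often transcribed from a promoter that also serves a gene on the opposite strand, since most mammalian promoters start RNA synthesis in both directions. The kilobase before such a gene then holds the first exons of its partner. Other noncoding genes start inside the introns of a host gene, or are pseudogenes, copies of coding genes that lie far from the original promoter. RNA made upstream of a start and not part of a stable transcript is normally removed by the nuclear RNA exosome. In activated B cells such transcription is of interest because AID, the deaminase of class switching, acts on transcribed DNA.

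The sequences below are the bases just before the start of 8 members, and they show the promoter stretches whose windows carried the results that follow. They are RefSeq promoters of build GRCm38.p6, written 5′ to 3′ on the strand of the noncoding gene and ending at the base before its start. Each stops where an exon of another gene begins, or after 250 bases. Capitals mark matches on either strand to the TATA box (TATAAA), the box bound by factor NF-Y (CCAAT), the GC box bound by Sp1 (GGGCGG) and the octamer of B cell promoters (ATTTGCAT), and overlapping matches run together. The first 5 and Tug1 have an exon of an opposite-strand gene in the window, while Malat1 and E330020D12Rik have no annotated gene in the window.
C920006O11Rik, chr9:78175664-78175913, + strand: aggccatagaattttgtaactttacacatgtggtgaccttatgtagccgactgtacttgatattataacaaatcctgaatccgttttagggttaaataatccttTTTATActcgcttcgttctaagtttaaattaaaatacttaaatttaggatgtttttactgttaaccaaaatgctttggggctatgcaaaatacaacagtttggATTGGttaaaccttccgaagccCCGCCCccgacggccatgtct
Gm16998, chr10:54075797-54075921, + strand: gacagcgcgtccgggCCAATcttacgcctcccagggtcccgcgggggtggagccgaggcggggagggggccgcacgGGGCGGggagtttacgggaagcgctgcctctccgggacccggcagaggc
0610009L18Rik, chr11:120348543-120348677, + strand: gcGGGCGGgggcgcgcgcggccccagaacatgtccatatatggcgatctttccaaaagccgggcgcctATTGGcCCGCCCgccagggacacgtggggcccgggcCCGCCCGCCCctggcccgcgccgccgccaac
C130036L24Rik, chr1:86359401-86359583, + strand: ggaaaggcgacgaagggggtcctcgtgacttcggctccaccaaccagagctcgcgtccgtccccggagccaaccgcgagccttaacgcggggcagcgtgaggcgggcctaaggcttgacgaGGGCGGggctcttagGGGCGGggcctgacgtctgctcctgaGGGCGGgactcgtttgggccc
5430402O13Rik, chr6:50566539-50566642, + strand: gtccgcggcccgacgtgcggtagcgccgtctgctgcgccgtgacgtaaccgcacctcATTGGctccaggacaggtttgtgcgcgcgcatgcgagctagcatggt
Tug1, chr11:3648815-3649064, - strand: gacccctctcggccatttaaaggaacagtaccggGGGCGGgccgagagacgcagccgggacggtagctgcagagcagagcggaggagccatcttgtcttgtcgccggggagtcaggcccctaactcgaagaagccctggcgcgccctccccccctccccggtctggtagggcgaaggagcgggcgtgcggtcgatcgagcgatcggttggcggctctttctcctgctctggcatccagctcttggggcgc
Malat1, chr19:5802673-5802922, - strand: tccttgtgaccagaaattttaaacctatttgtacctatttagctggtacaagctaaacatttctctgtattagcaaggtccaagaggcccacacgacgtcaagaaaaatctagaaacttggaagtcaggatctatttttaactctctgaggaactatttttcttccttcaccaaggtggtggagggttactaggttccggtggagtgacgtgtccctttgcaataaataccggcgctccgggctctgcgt
E330020D12Rik, chr1:153414234-153414483, - strand: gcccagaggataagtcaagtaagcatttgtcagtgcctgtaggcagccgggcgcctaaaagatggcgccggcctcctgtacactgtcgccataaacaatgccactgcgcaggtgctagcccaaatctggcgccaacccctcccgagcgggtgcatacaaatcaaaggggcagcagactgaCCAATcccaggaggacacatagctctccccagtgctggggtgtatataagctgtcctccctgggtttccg
The stretch between the start of Gm16998 and the nearest exon of Man1a was 125 bases long with 15 CG dinucleotides. The annotated start of Man1a lies outside this window. The stretch between 0610009L18Rik and Actg1 was 135 bases long with 19. The stretch between C130036L24Rik and Ncl held GGGCGG at 3 places, and that before 5430402O13Rik, towards Cycs, 1 CCAAT on the other strand. The 250 bases before C920006O11Rik, at the edge of the 7SK gene, held 8 CG dinucleotides and a GC content of 36.8%, against 24 and 67.6% before Tug1. No match to these letters was found before Malat1.

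Upstream windows of noncoding genes were mostly weakly covered, with a minority at high levels. The median upstream level was 0.113 RPKM in Nedd4+/+ cells (quartiles 0.0481 and 0.273) and 0.236 RPKM in Nedd4-/- cells (0.131 and 0.436). Coding genes had medians of 0.135 and 0.269 RPKM. At or above 1 RPKM stood 12.2% of the noncoding windows in Nedd4+/+ and 11.5% in Nedd4-/- cells, against 8.12% and 8.09% of the coding windows. At 0 were 111 and 34 noncoding windows, 18 of them in both libraries. The noncoding set thus had a lower median and a larger share of high windows than the coding set in both libraries, a description of windows, which are not replicates.

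High levels lay mainly over neighbouring genes, placed with the GENCODE M21 annotation of GRCm38. All overlaps, and all starts said to lie in a window, rest on that build. The files use mm9, so the window that was counted may differ for single members. Of 2050 members that could be placed, 1020 (49.8%) had a window that overlapped another gene, against 28.8% of 20192 coding genes. The window covered an exon of an opposite-strand gene in 577 members (28.1%, against 18.7% of coding genes), an exon of a same-strand gene in 66, and only introns of another gene in 377. It lay within other transcripts of the gene itself in 282 and held no annotated gene in 748. Windows over an opposite-strand exon had medians of 0.406 and 0.543 RPKM, and 191 of 577 (33.1%) had a mean of 1 RPKM or more. Windows without an annotated gene had medians of 0.0722 and 0.174 RPKM, and 4 of 748 (0.535%) reached that mean. Without overlap with another gene 11.2% of the members were at or above 0.2 RPKM in Nedd4+/+ cells, against 23.9% of coding genes, and 40.5% against 56.6% in Nedd4-/- cells.

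**Figure D1:**
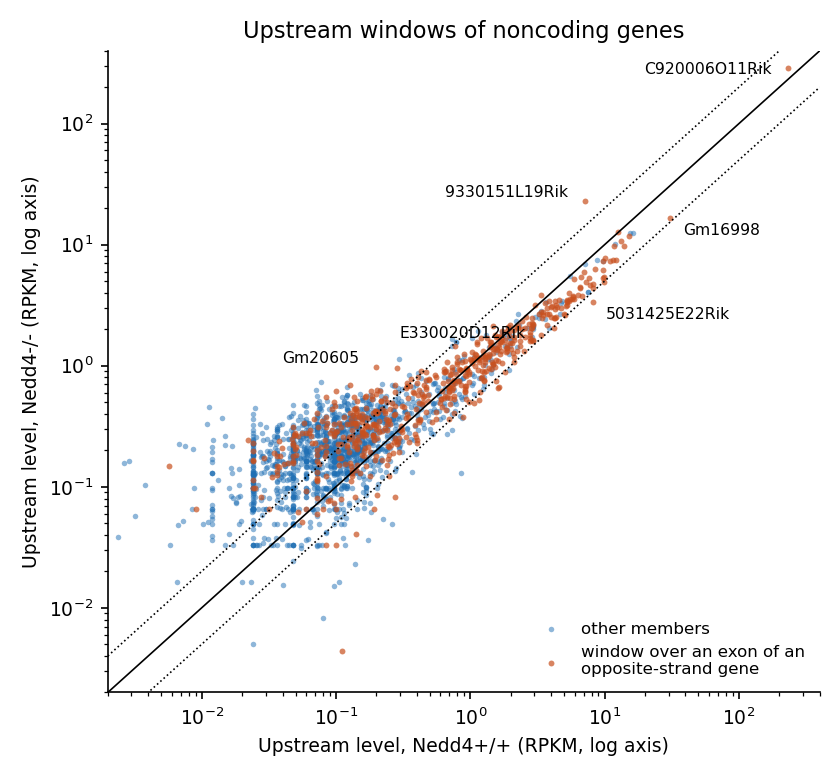
Upstream level of each noncoding gene in Nedd4+/+ cells (x axis, RPKM, log scale) against the Nedd4-/- library (y axis, RPKM, log scale), with windows over an exon of an opposite-strand gene in orange and all other members in blue. The solid line marks equal levels and the dotted lines 2-fold differences, 127 members at 0 in either library are not drawn, and low windows lie above the solid line while most windows over 1 RPKM lie on or below it.

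Of the 12 windows with the highest mean level, 11 lay over another gene and 1 could not be placed. The window of C920006O11Rik, on chromosome 9, stood at 232 RPKM in Nedd4+/+ and 289 RPKM in Nedd4-/- cells, while the noncoding gene itself was at 0.229 and 0.234 RPKM. It contains the start of Rn7sk, the 7SK RNA, which holds the elongation factor P-TEFb in an inactive complex and which RNA polymerase III makes in large amounts. The mean depth of this window was 1951 and 1783 reads per base. The structured RNAs Rmrp, Rpph1 and Vaultrc5 had the same depth in both libraries (Rmrp 5902 and 5902 reads per base, Rpph1 7454 and 7463), so that their RPKM differ by the ratio of library sizes, 1.36. Whether depth was capped in the C920006O11Rik window too was not tested, and its difference is not read as one in RNA.

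The next window by level was that of Gm16998 on chromosome 10, at 30.9 RPKM in Nedd4+/+ and 16.7 RPKM in Nedd4-/- cells. It lies over an exon of Man1a, a mannosidase of N-glycan trimming, which was at 62.3 and 38.1 RPKM, while Gm16998 itself was at 0.250 and 0.482 RPKM. The window of 0610009L18Rik, at 15.3 and 11.7 RPKM, contains the start of Actg1, cytoplasmic gamma actin (124 and 93.7 RPKM). That of C130036L24Rik, at 12.6 and 12.8 RPKM, contains the start of Ncl, the nucleolar protein nucleolin (25.5 and 23.6 RPKM). In these 3 cases the window and the opposite-strand gene were both above 10 RPKM while the noncoding gene stayed below 1 RPKM in both libraries.

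The other 7 placed windows lay over coding genes of varied function, and 6 of them were higher in Nedd4+/+ cells. The window of Dand5 covers an exon of Gadd45gip1, a protein of the mitochondrial ribosome, and was at 13.2 and 10.6 RPKM. The window of 6230400D17Rik covers Chchd1, also of the mitochondrial ribosome, and was at 11.8 and 9.81 RPKM. The window of Gm10069 contains the start of Fkbp4, a co-chaperone of HSP90, and was at 12.2 and 7.43 RPKM. The window of Slx1b, over Bola2, was at 13.9 and 9.83 RPKM and that of Gm3219, over a same-strand exon of Glud1 (glutamate dehydrogenase), at 11.9 and 10.1 RPKM. The window of 0610039K10Rik lies in an intron of Serinc3 and was at 16.3 and 12.5 RPKM. The window of BC029722, the 1 without a place, was at 15.4 and 12.6 RPKM.

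Among windows picked by their own level, many had a higher RPKM than the noncoding gene that follows them. Over all 2116 members the medians were 0.113 and 0.236 RPKM for the window and 0.136 and 0.275 RPKM for the gene. Where the library values averaged 0.2 RPKM or more, the upstream level was at or above the gene's own RPKM in 55.7% of 915 noncoding windows in Nedd4+/+ cells and in 58.9% in Nedd4-/- cells. Coding genes gave 17.8% and 22.1% of 10425 windows. The noncoding genes of these windows had lower levels of their own (medians 0.374 and 0.469 RPKM, against 2.84 and 2.19 RPKM for coding genes), and the share differed with the gene level: for genes with a mean under 1 RPKM it was 69.8% against 42.9% in Nedd4+/+ cells, for genes of 1 to 5 RPKM 27.0% against 6.79%, and for genes of 5 RPKM or more 5.41% against 1.06%. It was highest over opposite-strand exons, at 69.1% and 70.3% of 434 windows, and lower for the 166 windows with no annotated gene, at 43.4% and 54.2%. For genes of 1 to 5 RPKM without an annotated gene in the window it was 0% of 29 windows in Nedd4+/+ cells, against 40.6% of 96 windows over an opposite-strand exon.

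**Figure D2:**
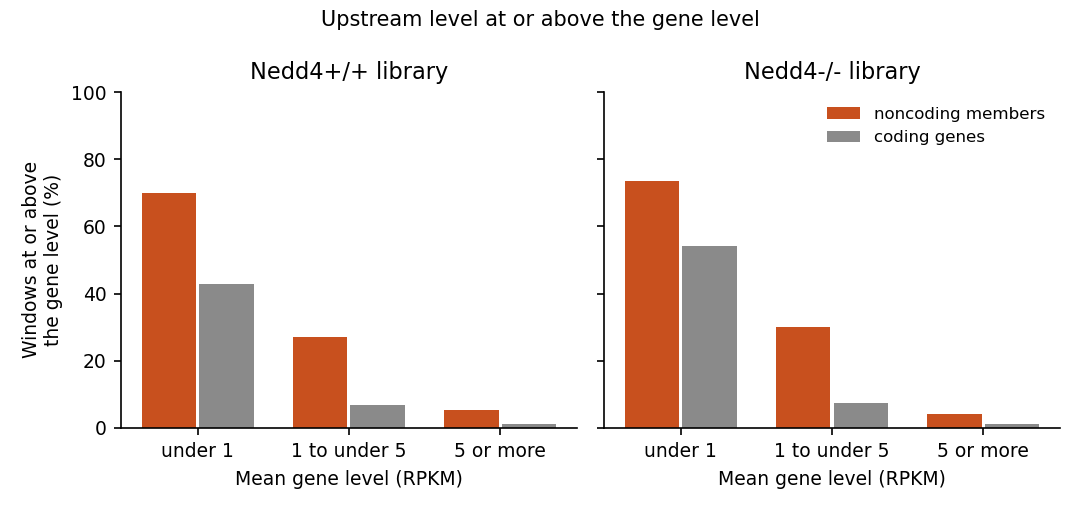
Share of windows (y axis, percent) whose upstream level was at or above the level of the gene, by mean gene level in RPKM (x axis), for noncoding members in orange and coding genes in grey, in each library, for windows averaging at least 0.2 RPKM. The orange bar is the higher of each pair, from 69.8% against 42.9% in the lowest class of the Nedd4+/+ library to 5.41% against 1.06% in its highest.

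Over opposite-strand exons the rank order of upstream levels was closer to that of the neighbours than to that of the noncoding genes, while the level itself lay more often nearer the noncoding gene. Where a window covered exons of several opposite-strand genes, the one with the highest mean RPKM was taken, a choice that favours high neighbour levels. The opposite-strand gene was matched in the files for 392 of the 434 windows of this kind with a mean of 0.2 RPKM or more. Among them 1700105P06Rik was matched to its own row. Across these 392 windows of the Nedd4+/+ library the Spearman correlation of upstream level was 0.81 with the RPKM of the neighbour and 0.48 with that of the noncoding gene. In the Nedd4-/- library the values were 0.76 and 0.44. The points share a library, and a window holds part of the neighbour's exons, so the correlations describe overlap and no p-value is given. Median levels in Nedd4+/+ cells were 3.37 RPKM for the neighbour, 0.938 RPKM for the window and 0.404 RPKM for the noncoding gene, and the neighbour was above the noncoding gene in 339 of 392 pairs. On the log2 scale with 0.1 RPKM added, the window was nearer the neighbour's level than that of the noncoding gene in 176 of 392 pairs in Nedd4+/+ cells and in 165 in Nedd4-/- cells. Over 76 windows with all 3 means at 1 RPKM or more, the Spearman correlation of the window's log2 ratio was 0.50 with that of the neighbour and 0.45 with that of the noncoding gene.

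**Figure D3:**
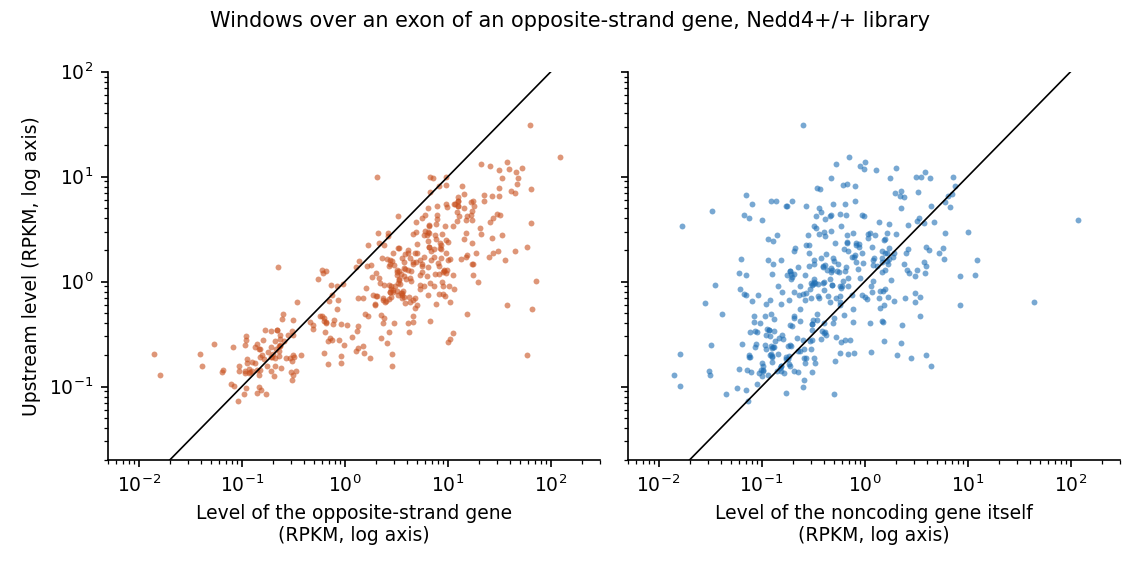
Upstream level (y axis, RPKM, log scale) of members whose window covers an exon of an opposite-strand gene, against the level of that gene (left, x axis, RPKM, log scale) and of the noncoding gene itself (right), in Nedd4+/+ cells. Each point is 1 of 392 members and the line marks equal levels, and the points rank more like the neighbour (Spearman 0.81) than like the noncoding gene (0.48), although 176 of 392 lie nearer the neighbour's level.

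The comparison of genotypes asked whether RNA upstream of noncoding genes differed between Nedd4-/- and Nedd4+/+ B cells. Log2 ratios are Nedd4-/- over Nedd4+/+ with 0.1 RPKM added to each level, which understates differences of low windows, and a window was called at 2-fold. Of the 2116 windows 1548 (73.2%) were higher in Nedd4-/- cells, against 75.8% of all windows of the series. Over these 2116 the median log2 ratio was 0.43, against 0.45 over all windows. For 915 the mean reached 0.2 RPKM, and 156 of these (17.05%) passed 2-fold upwards, where 19.8% of all windows tested did, and 12 (1.31%) passed it downwards, where 0.794% did. Their median was 0.21, against 0.41 for all windows tested. Of these 915, 275 were under 0.2 RPKM in Nedd4+/+ cells and passed through the Nedd4-/- level. Relative to the median of all windows, 60 were higher and 94 lower, where 6.5% and 5.68% of all windows were, which moved the share of higher windows among those called from 92.9% to 39.0%. The T, myeloid and erythroid marker lists, all under 1 RPKM, were also higher in sum in Nedd4-/- cells: the summed level was 0.503 and 1.33 RPKM for 5 T cell markers, 1.26 and 2.26 RPKM for 6 myeloid markers and 0.548 and 1.09 RPKM for 3 erythroid markers, while the 5 B cell markers summed to 432 and 334 RPKM. Of all genes with a mean under 1 RPKM 83.5% were higher in Nedd4-/- cells, so a higher sum is not particular to these lists. The part of the marker lists in the ratios of low windows was not tested.

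The median ratio differed between level classes, in noncoding and coding genes alike. Between 0.2 and 0.5 RPKM the median log2 ratio was 0.71 over 503 noncoding windows and 0.67 over coding windows, and 29.8% and 28.2% were at least 2-fold higher. Of these 503, 489 reached 0.2 RPKM in Nedd4-/- cells and 229 in Nedd4+/+ cells, so many entered through the library in which they were high, and the class holds 150 of the 156 upward calls. Between 0.5 and 1 RPKM it was -0.07 over 158 noncoding windows and 0.20 over coding windows. From 1 to 3 RPKM it was -0.24 over 172 and -0.19 over coding windows, and from 3 RPKM -0.52 over 82 and -0.43. Of the 254 noncoding windows averaging 1 RPKM or more, 2 passed 2-fold upwards and 5 downwards, where 0.474% and 1.8% of all such windows did. Relative to the median of all windows these counts were 1 and 64, where 0.142% and 18.9% of all such windows passed. Over all genes tested the median log2 ratio of the gene level was -0.31 with 1 RPKM added.

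The ratio also differed by what the window overlaps. Levels differed with the overlap as well, and the part of level in these ratios was not tested. Over opposite-strand exons the median log2 ratio was -0.08 over 434 noncoding windows, against 0.11 over coding windows of this kind. Of these 434, 38 (8.76%) were at least 2-fold higher and 6 (1.38%) lower, beside 19.8% and 0.794% of all windows. Relative to the median of all windows 12 were higher and 63 lower, where 6.5% and 5.68% of all windows were. Over introns of another gene it was 0.20 over 168 windows, within the own gene 0.43 over 79, and with no annotated gene 0.78 over 166, of which 55 (33.1%) were at least 2-fold higher and 2 (1.20%) lower, beside the same 19.8% and 0.794%. Relative to the median 24 were higher and 5 lower, beside 6.5% and 5.68% of all windows. Of all 748 noncoding windows without an annotated gene, 292 reached 0.2 RPKM in Nedd4-/- cells and 66 in Nedd4+/+ cells. Many of those tested thus entered through the library in which they were high. Coding windows with no annotated gene had a median of 0.67. In RPKM, the median difference of these windows was 0.184 in both the noncoding and the coding set. Over all 748 noncoding windows without an annotated gene, whatever their level, 640 (85.6%) were higher in Nedd4-/- cells, beside 75.8% of all windows. Their median difference was 0.0876 RPKM, below the level of 3 read pairs in the Nedd4-/- library and near the 0.0873 RPKM over all windows.

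**Figure D4:**
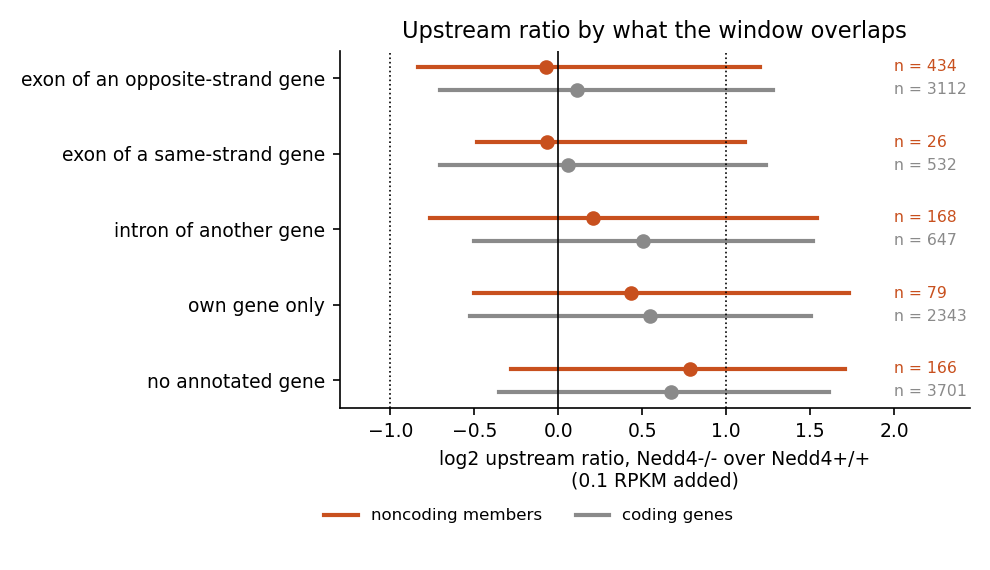
Log2 ratio of upstream level, Nedd4-/- over Nedd4+/+ with 0.1 RPKM added (x axis), by what the window overlaps (y axis), for noncoding members in orange and coding genes in grey with a mean of 0.2 RPKM or more. Points are medians, bars run over the central 90% of windows and are no error of the median, n is the number of windows, and the noncoding median goes from -0.08 over opposite-strand exons to 0.78 where no gene is annotated.

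Among high windows the widest difference was at 9330151L19Rik on chromosome 12. Its window stood at 7.10 RPKM in Nedd4+/+ cells and at 22.8 RPKM in Nedd4-/- cells, a log2 ratio of 1.67. The counting interval of the ratio without pseudocount was 1.48 to 1.88, an exact 95% interval on 295 and 696 read pairs that covers counting error only, like all intervals given here. The noncoding gene itself was at 3.30 and 3.34 RPKM. The window contains the start of Dnaaf2, an assembly factor of ciliary dynein, at 6.65 and 17.2 RPKM, and Klhdc2, also on chromosome 12 and named after its values were seen, was at 10.6 and 66.2 RPKM. Without this member the Pearson correlation of upstream and neighbour log2 ratios across windows with both means at 1 RPKM or more was 0.47 over 184 windows, against 0.57 with it, and the Spearman correlation 0.45 against 0.46. The medians of these 185 windows were -0.38 for the window and -0.35 for the neighbour.

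Other members with the highest ratios had low windows in both libraries. The window of Gm20605 was at 0.198 and 0.972 RPKM, a log2 ratio of 1.84 with a counting interval of 1.14 to 3.61, and contains the start of Fbxo24, an F-box gene at 0.374 and 0.521 RPKM. The window of E330020D12Rik, which holds no annotated gene, was at 0.295 and 1.14 RPKM (1.65, interval 0.98 to 3.02), while its gene was at 1.32 and 1.05 RPKM. The window of B930003M22Rik contains the start of Qk, an RNA-binding protein of splicing, and was at 0.286 and 0.953 RPKM (1.45), where Qk was at 10.5 and 8.71 RPKM. The window of 2610005L07Rik, with no annotated gene, was at 0.730 and 1.66 RPKM (1.09), and the gene itself at 8.68 and 8.46 RPKM. These 4 members were picked for a high ratio, so a higher window in Nedd4-/- cells follows from the choice. Their noncoding genes differed by less than 0.2 on the log2 scale with 1 RPKM added. Others of the 10 highest ratios differed more in the gene: Nutf2-ps1 (-0.48), A730090N16Rik (-0.40), 1700123M08Rik (0.36), Gm15612 (0.28) and 1190002F15Rik (-0.23). Pisd-ps1 and Pisd-ps3, near-identical pseudogene copies whose reads cannot be told apart with certainty, had windows at 0.783 and 1.56 RPKM and at 0.788 and 1.56 RPKM.

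**Figure D5:**
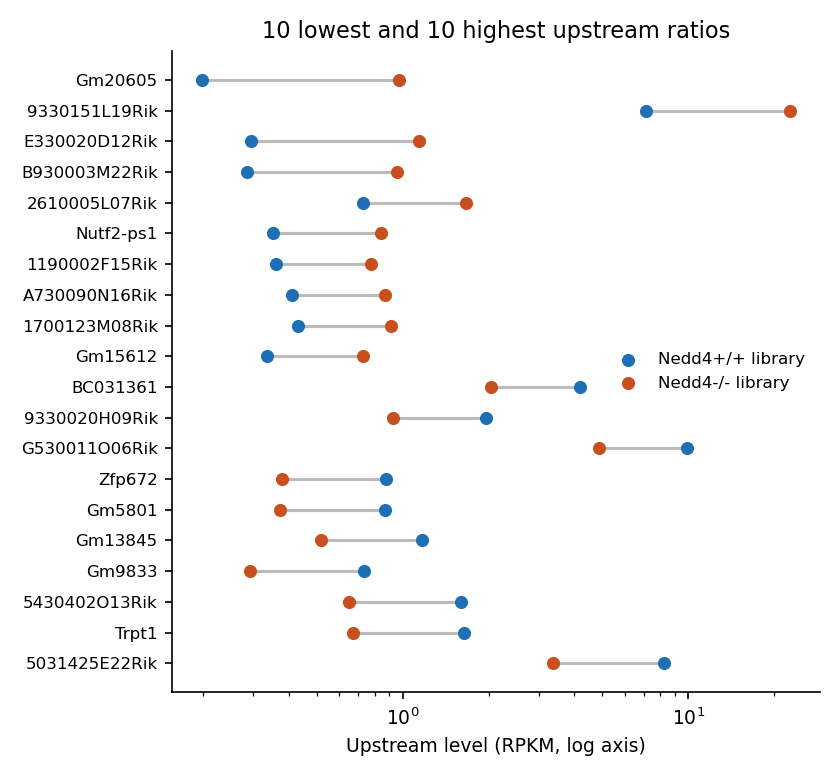
Upstream level (x axis, RPKM, log scale) in Nedd4+/+ cells in blue and the Nedd4-/- library in orange of the 10 members with the lowest and the 10 with the highest log2 ratio among 412 with a mean of 0.5 RPKM or more. Each library is 1 point without error, and apart from 9330151L19Rik the windows with the highest ratios lie below 2 RPKM.

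Among the 10 lowest ratios, 6 windows averaged 1 RPKM or more, and 5 of these were at least 2-fold lower in Nedd4-/- cells. The window of 5031425E22Rik was at 8.21 and 3.37 RPKM, a log2 ratio of -1.26 with a counting interval of -1.62 to -0.96. Its gene was at 7.57 and 3.94 RPKM, and Kmt2e, listed as Mll5, a member of the histone methyltransferase family whose start lies in the window, at 8.26 and 4.58 RPKM. The window of Trpt1, a tRNA phosphotransferase gene, was at 1.64 and 0.668 RPKM (-1.18), with Nudt22 in the window at 2.57 and 1.21 RPKM. In these 2 cases window, neighbour and gene were all lower in Nedd4-/- cells.

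As in those 2 cases, the neighbour differed less than the window in the members that follow. The window of 5430402O13Rik was at 1.60 and 0.649 RPKM (-1.18, interval -2.10 to -0.56), while Cycs, cytochrome c, was at 6.92 and 5.99 RPKM and the noncoding gene at 0.116 and 0.195 RPKM. The window of G530011O06Rik, on chromosome X, was at 9.93 and 4.87 RPKM (-1.01), where Mid1, a ubiquitin ligase gene on the other strand, was at 2.05 and 1.80 RPKM. The gene G530011O06Rik itself was at 7.27 and 4.84 RPKM, also lower in Nedd4-/- cells. The window of BC031361, over Gsk3b, a kinase of glycogen and Wnt signalling, was at 4.17 and 2.04 RPKM, with Gsk3b at 3.30 and 2.30 RPKM. That of Gm13845, over Mkln1 (7.59 and 6.13 RPKM), was at 1.17 and 0.517 RPKM (-1.04). The window of 9330020H09Rik lies in Ccnt1, the cyclin of P-TEFb (13.1 and 8.91 RPKM), and was at 1.96 and 0.926 RPKM. Its noncoding gene was at 0.996 and 0.763 RPKM. Gt(ROSA)26Sor, the locus used for ubiquitous transgenes, had a window at 2.92 and 1.60 RPKM (-0.83), while its gene was at 5.98 and 5.91 RPKM and Setd5 on the other strand at 15.1 and 9.69 RPKM.

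A few windows without another gene were at 1 RPKM or more. The 4 with no annotated gene were those of Cldn25 (1.77 and 1.81 RPKM), Gm20300 (1.35 and 1.14 RPKM), 2610005L07Rik and Pisd-ps1. Another 7 lay within other transcripts of the gene itself, led by Gm8989 at 3.87 and 2.04 RPKM and Trmt61b, a tRNA methyltransferase gene, at 2.18 and 2.36 RPKM. They include noncoding isoforms of coding genes such as Gnas, the stimulatory G protein subunit (1.38 and 1.42 RPKM), and Rtel1, a telomere helicase gene (1.21 and 0.798 RPKM). Cldn25, Gm20300, Trmt61b, Gnas and Rtel1 were singled out after their values were seen.

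Well-studied long noncoding RNAs mostly had windows under 1 RPKM whatever the level of the RNA. Malat1, an RNA of nuclear speckles, was at 187 and 120 RPKM and its window at 0.467 and 0.746 RPKM. Neat1, the scaffold of paraspeckles, was at 5.69 and 4.14 RPKM and its window at 0.166 and 0.555 RPKM (log2 ratio 1.30), with the start of Frmd8os in the window. Gas5, a snoRNA host, was at 44.5 and 36.3 RPKM with a window at 0.640 and 0.883 RPKM, head to head with Zbtb37. Pvt1, the transcript beside Myc, was at 3.90 and 3.84 RPKM with a window at 0.0841 and 0.326 RPKM (1.21, interval 0.09 to 4.25). Tug1 had the highest window of these, at 2.94 and 2.20 RPKM, and shares it with Morc2a (6.39 and 4.41 RPKM). Of 17 members in this list 10 had a window mean of 0.2 RPKM or more, 2 of them (Neat1 and Pvt1) passed 2-fold upwards and 0 downwards, a share of 20% upwards beside 19.8% of all windows. Relative to the median of all windows 0 passed upwards and 1, Dleu2, downwards. In this list 9 genes had a gene mean of 1 RPKM or more, with 0 past 2-fold.

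Among RNAs of X inactivation and imprinting, Xist and Tsix differed past 2-fold in the gene. Xist, which coats the inactive X chromosome, was at 23.7 RPKM in Nedd4+/+ and 0.0958 RPKM in Nedd4-/- cells, while its window was at 0.0660 and 0.229 RPKM. Tsix, its antisense partner, was at 5.78 and 0.107 RPKM, and its window at 0.0204 and 0 RPKM, where a count of 0 allows up to 0.0983 RPKM. With no strand setting known, reads of Xist and Tsix cannot be assigned to either with certainty. The sample labels used here give no sex of the donors. With 1 library each, a difference between donors, of sex or otherwise, and one of genotype cannot be told apart for this X-linked pair. Airn, the antisense RNA that silences Igf2r, was at 0.541 and 0.470 RPKM, and its window, inside Igf2r, at 1.27 and 0.755 RPKM (-0.68, interval -1.52 to -0.02). Of 11 members in this list 4 had a window mean of 0.2 RPKM or more and 0 of these passed 2-fold, where 19.8% of all windows did upwards and 0.794% downwards, and relative to the median 1 (Airn) passed downwards.

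The abundant structured RNAs, short stable RNAs of ribonucleoprotein complexes, had gene levels far above their windows. Rmrp, the RNA of RNase MRP, was at 703 and 957 RPKM and its window at 1.72 and 1.56 RPKM. Rpph1, the RNA of RNase P, was at 888 and 1211 RPKM and its window, head to head with the repair gene Parp2, at 0.913 and 1.09 RPKM. Terc, the telomerase RNA, was at 28.1 and 19.8 RPKM and its window at 0.0451 and 0.174 RPKM. Of 7 such members 3 had a window mean of 0.2 RPKM or more, too few to set beside the 19.8% and 0.794% of all windows called, and 0 passed 2-fold. The other 4 (Terc, Rprl1, Rprl2 and Rprl3) had no annotated gene in the window.

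Genes named as antisense partners, many of them beside developmental regulators, had low windows in both libraries. Of 20 members with an opposite-strand name, Gnas entered by its spelling only, and the other 19 had median upstream levels of 0.120 RPKM in Nedd4+/+ and 0.262 RPKM in Nedd4-/- cells. The windows were higher in Nedd4-/- cells in 14 of 19 members and the noncoding genes in 17 of 19. The gene that the window overlaps was in the files for 17 members and was higher in 15 of these pairs. Vax2 enters with both Vax2os1 and Vax2os2, and Dlx6as1 is paired with its own row, so the pairs are not all distinct opposite-strand genes. Of all windows 75.8% were higher in Nedd4-/- cells, and of all genes with a mean under 1 RPKM 83.5% were, so these counts are near the shares over all features. The window of Vax2os2 was at 0.110 and 0.551 RPKM while Vax2, a homeobox gene of the eye, was at 0.197 and 0.410 RPKM. The window of Foxl2os was at 0.203 and 0.630 RPKM while Foxl2, a factor of the ovary, was at 0.201 and 0.481 RPKM. The window of Pax6os1 was at 0.0782 and 0.335 RPKM, and Pax6 at 0.184 and 0.266 RPKM. Fam120aos was the exception in level, with a window at 11.5 and 7.48 RPKM that contains the start of Fam120a, an RNA-binding protein gene (31.2 and 20.1 RPKM). Vax2os2, Foxl2os, Pax6os1 and Fam120aos were singled out after their values were seen.

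At the gene level few noncoding genes passed 2-fold. Of 324 averaging 1 RPKM or more, 0 passed 2-fold upwards, where 0.138% of all genes did, and 5 downwards, where 1.15% did. The 5 were Xist, Tsix, AI506816 (4.86 and 1.85 RPKM), Gm9855 (4.13 and 1.55 RPKM) and 4930455C13Rik (7.04 and 2.97 RPKM). Tsix and the last 3 are named after their values were seen. The window of AI506816 was lower too, at 0.262 and 0.0491 RPKM, that of Gm9855 was at 0.222 and 0.342 RPKM, and that of 4930455C13Rik, over Hbs1l, at 6.81 and 3.74 RPKM. The median log2 gene ratio of the 324 was -0.23, against -0.31 for all genes tested, and relative to the median of all genes 0 passed upwards and 2, Xist and Tsix, downwards, where 0.276% and 0.223% of all genes did. Windows gave 168 of 915 members past 2-fold, 17.05% upwards and 1.31% downwards, beside 19.8% and 0.794% of all windows. This count and that of 5 genes cannot be set side by side, as floors and added constants differ. At a minimum of 1 RPKM, the floor used for genes, 2 of 254 windows passed upwards and 5 downwards, beside 0.474% and 1.8% of all such windows.

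Sequence before the start differed with the upstream level. Of the members, 1225 had a promoter of 300 bases (250 before and 50 after the start) in the RefSeq table, and 1152 matched it at their own start within 100 bases. The median number of CG dinucleotides was 4 in 650 promoters with an upstream mean under 0.2 RPKM, 10 in 364 with 0.2 to 1 RPKM and 25.5 in 138 with 1 RPKM or more. Coding promoters had medians of 5, 21 and 24 in the same classes. GGGCGG was present in 14.5%, 44.5% and 65.2% of the noncoding classes, and in 35.7% of all 32851 promoters of the table. TATAAA was present in 16.8%, 7.14% and 6.52%, and in 13.6% of all promoters. CCAAT was present in 41.7%, 33.2% and 35.5% of the classes, against 37.4% of all promoters.

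The CG content also followed the neighbours. Noncoding promoters over an opposite-strand exon had a median of 19 CG dinucleotides and those with no annotated gene 4, against 23 and 13 for coding genes. Among noncoding promoters with no annotated gene the median was 3 under 0.2 RPKM and 6 at or above it. Coding promoters with no annotated gene had 6 and 21. The octamer ATTTGCAT was present in 1.56% of noncoding promoters, against 1.74% of all promoters. These shares describe letters in a window and not bound sites.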

How the data were processed

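RNA of 1 Nedd4+/+ and 1 Nedd4-/- culture was measured. TopHat, Cufflinks and build mm9 are named in the submitters' processing notes, with no version or role, and the sources used here do not give the counting rules or strand setting. The deposited gene values are RPKM, per the file headers. The deposited upstream values are a ratio, the level of the window over the gene's RPKM plus 0.0001: their product gave whole read bases, within 0.05 bases, in 100% of 13436 low windows of the Nedd4-/- and 99.99% of 15459 of the Nedd4+/+ library. That product is the upstream level used here, and reads of 101 nt were taken from its steps.

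Levels were compared as log2 ratios with 0.1 RPKM (windows, mean 0.2 RPKM or more) or 1 RPKM (genes, mean 1 RPKM or more) added, with a fixed 2-fold rule and no test. Intervals are exact Clopper-Pearson 95% intervals on read pairs and hold for counting error alone, as PCR copies of a molecule could not be recognised. The rule for calls and the interval were tried on simulated data that held counting error only. Changes were simulated only in windows well above the 0.2 RPKM minimum. Recovery and false calls of low windows, which hold most upward calls, were not tested. Members were placed by their accession in GENCODE M21 (1779) or RefSeq (271), both GRCm38, while the files use mm9, so no window coordinates are given. Printed promoters are RefSeq GRCm38.p6.

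Named were the 12 highest windows, the 10 highest and 10 lowest ratios at 0.5 RPKM or more, the 8 widest gaps each way between window and gene ratio, and listed RNAs with a window of 0.2 RPKM or a gene of 5 RPKM. The text gives those that show the range. Members and lists were chosen with earlier results of these data known. A gene of the marker lists is not reported here. Alternatives changed the pseudocount, minimum, scaling and overlap. Python 3.11.15, pandas 2.3.3, SciPy 1.17.1 and matplotlib 3.10.9 were used.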

Additional observations from a re-analysis of the deposited data

How the results depend on the processing

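Against 156 higher and 12 lower windows, there were 4 and 2 with 0.5 RPKM added, 406 and 19 with no minimum, 2 and 5 with a minimum of 1 RPKM, 60 and 94 relative to the median of all windows, 74 and 2 without windows over another gene (30.2% and 0.816% of members, 26.3% and 0.600% of all windows), and 101 and 111 on the deposited ratio itself (11.04% and 12.1% of members, 11.5% and 4.48% of all windows). Of all windows, 0.321% and 0.169% passed with 0.5 RPKM added and 19.2% and 0.597% with no minimum. With a minimum of 0.5 RPKM 6 were higher and 9 lower, beside 3.66% and 1.47% of all windows. The median log2 ratio of 0.21 became 0.12 with 0.5 RPKM added, 0.43 with no minimum, 0.71 without windows over another gene and 0.012 on the deposited ratio. It turned negative at a minimum of 0.5 RPKM (-0.23) and 1 RPKM (-0.35) and relative to all windows (-0.20). With 0.05 RPKM added, or 1 row per symbol, counts were within 1.5 times. At the gene level 5 lower genes became 11 with 0.1 RPKM added, 2 with a minimum of 5 RPKM and 2 relative to all genes. The median of -0.23 became -0.31, -0.29 and 0.085 there, and 0.091 with no minimum. The share of members at 0.2 RPKM (31.2% and 57.0%) was 18.6% and 21.4% at 0.5 RPKM, 12.2% and 11.5% at 1 RPKM, and 11.2% and 40.5% without overlap. The share at or above the gene level was 71.7% and 72.8% from 1 RPKM, and 29.9% and 26.4% at 2 times the gene level. Counting exons only, 31.4% of windows overlapped another gene. Of 17 named members past 2-fold, 4 (9330151L19Rik, 5031425E22Rik, E330020D12Rik and Gm20605) still passed with 0.5 RPKM added and 13 did not. No paired analysis was possible because each genotype has 1 library. Windows under 3 read pairs in both libraries are beyond this depth.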
